A study of Mus musculus with 13 samples.

Results

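The comparison described here is the difference between the responses of 2 sorted cell populations to muramyl dipeptide (MDP), a fragment of the bacterial cell wall. For each gene, the change from PBS to MDP in CD103 low dendritic cells was subtracted from the same change in CD103 high dendritic cells. This interaction uses all 13 of the 13 arrays in the series and was fitted for 22180 genes, each with 1 probe set. The value is on the log2 scale, so that 1 stands for a fold change 2 times as large in CD103 high cells, and a value below 0 stands for a change that was less positive, or more negative, in CD103 high cells.

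All mice were C57Bl/6 littermates, labelled male and 6 weeks old, and all carried for 5 days a subcutaneous B16 melanoma that secretes Flt3L, the growth factor that expands dendritic cells. They were injected intraperitoneally with 100 ul of PBS alone or with 50 ug of MDP in it, and spleens were taken after 24 h. CD205+CD8+ dendritic cells were sorted and divided by surface CD103 into a high and a low gate. The groups were PBS CD103 low (4 arrays, replicates 1, 3, 4 and 6), MDP CD103 low (3 arrays, replicates 1, 2 and 3), PBS CD103 high (3 arrays, replicates 4, 5 and 6) and MDP CD103 high (3 arrays, replicates 2, 3 and 4). The tumor and its Flt3L were thus present in the PBS groups too, and mice without them were not analysed here. Nothing states that each array came from a mouse of its own, so the p-values given cover the spread among these samples alone, and 3 or 4 arrays per group limit the precision. The median standard error of the interaction was 0.151 on the log2 scale.

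MDP is sensed inside cells by the receptor NOD2, which signals to the transcription factor NF-kB through the kinase RIPK2. Dendritic cells of the CD8+ type, called type 1 conventional dendritic cells or cDC1, take up dying cells and show their antigens to CD8 T cells, and CD103 is an integrin chain, encoded by Itgae, that many of them carry. Dendritic cells in the spleen still divide under the influence of Flt3L, and when they mature they leave the cell cycle and switch on CCR7, the receptor that guides them to T cells. Genes of DNA replication are transcribed mainly by E2F factors before and during S phase, and genes of mitosis later in the cycle.

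The sorted cells carried the markers of their label in both gates. Across the arrays, the log2 value of Cd8a was 10.15 to 10.64, that of the cDC1 chemokine receptor Xcr1 was 9.84 to 10.16, and that of the transcription factor Irf8 was 12.18 to 12.28. Their interactions were -0.12 ± 0.16 for Cd8a, -0.05 ± 0.12 for Xcr1 and -0.02 ± 0.08 for Irf8 (SE). For a sense of the dim end of the scale, 95 percent of 1105 olfactory receptor genes, which these cells should not use, lay below 5.12. Nod2 stood above it in every array, at 6.54 to 7.03, and its interaction was -0.17 ± 0.15 (adjusted p = 0.783).

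Among the arrays, 1 stood apart and several went against their label. MDP CD103 low replicate 1 had a mean level of 8.41 over 40 genes of mature, CCR7-type dendritic cells, against 7.50 and 7.49 in the other MDP CD103 low arrays. Xist, an RNA of female cells, was at 10.98 to 11.21 in 7 arrays although all are labelled male, and at 4.47 to 6.69 in the other 6. Arrays with high Xist were found in every group, 2 of 4 in PBS CD103 low, 1 of 3 in MDP CD103 low, 2 of 3 in PBS CD103 high and 2 of 3 in MDP CD103 high. Their part in the results was not tested beyond the values given with each result.

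Genes that differed between the gates in their response to MDP were mainly genes of the cell cycle, which 12 of the 16 found belong to by the lists used here. These lists hold 239 of the 22180 genes and were chosen with earlier results of these data known. Of 22180 genes, 16 passed an adjusted p of 0.05 in the interaction (limma, Benjamini-Hochberg), which is 0.0721% of the genes. All 16 had the more positive response in CD103 high cells, by 0.78 to 1.43 (median 1.05), and each had an adjusted p of 0.0486, close under the threshold. At an unadjusted p of 0.05, 2137 genes passed, 1053 above 0 and 1084 below. In CD103 high cells all 16 rose, by 0.60 to 1.12, with adjusted p of 0.00428 to 0.00977. The interaction contains this high-gate response, so the rise is no separate support. In CD103 low cells none of them passed (the smallest adjusted p was 0.741), and the 16 differences lay between -0.43 and -0.02. In each of the 16 genes, the 3 MDP CD103 high arrays lay above all 10 other arrays. The choice of these genes favours high values in that group, and the share of all genes with this pattern was not counted. A like limit holds wherever groups of a single gene are said not to overlap, since genes were named mainly by their differences.

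**Figure D1:**
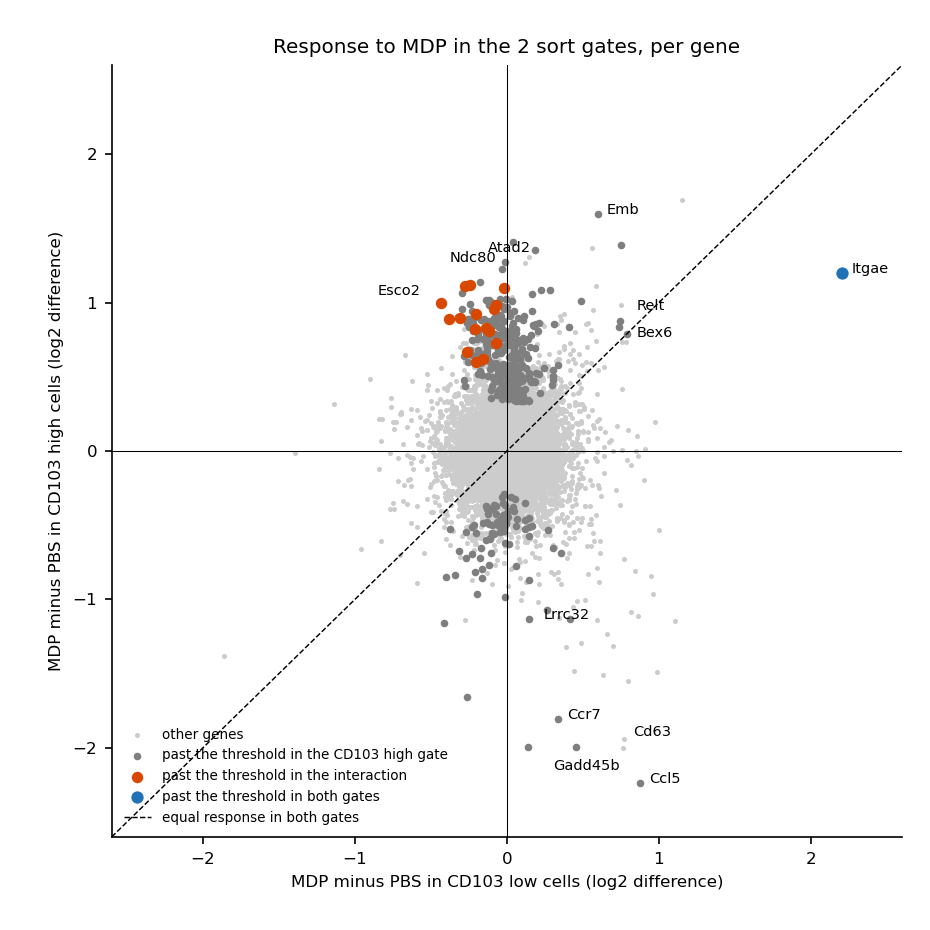
Each dot is 1 of 22180 genes, with its log2 difference between MDP and PBS in CD103 low cells on the horizontal axis and in CD103 high cells on the vertical axis. The 16 genes past the interaction threshold lie between 0.60 and 1.12 upward and slightly left of 0, Itgae lies far to the right, and the dashed line marks equal responses.

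The number of genes past the threshold depended on single arrays. Without MDP CD103 low replicate 1 the interaction passed in 2 genes, without MDP CD103 low replicate 2 in 10, without PBS CD103 low replicate 6 in 41 and without PBS CD103 high replicate 4 in 107. It passed in 0 without each of the other 9 arrays, which are MDP CD103 low replicate 3, PBS CD103 low replicates 1, 3 and 4, MDP CD103 high replicates 2, 3 and 4, and PBS CD103 high replicates 5 and 6. In each of these fits all 16 differences stayed above 0, and their adjusted p ranged from 0.00461 to 0.161. Same-numbered arrays of a treatment deviated together, and with those numbers as a random block 41 genes passed, 40 above 0 and 1 below, the 16 among them. With a term for high Xist 0 genes passed, and the adjusted p of the 16 was 0.0576 to 0.072. The median interaction of the 16 was 0.954 within the arrays with high Xist and 1.19 within those with low Xist, and all 16 were above 0 in each, an alternative chosen after the data were seen. The 16 were chosen on these same arrays, so signs that stay in such fits and splits are no separate support.

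Several of the 16 genes act on chromosomes between their copying and their separation. Esco2 (probe set 17307774) encodes the acetyltransferase that locks cohesin around sister chromatids in S phase. Its log2 value was 7.96, 7.86 and 7.74 in MDP CD103 high and 7.06, 6.74 and 6.77 in PBS CD103 high. In CD103 low cells it was 6.15, 6.67 and 6.75 with MDP and 6.98, 7.0, 6.89 and 6.95 with PBS. The MDP arrays thus lay above the PBS arrays in one gate and below them in the other, with no overlap in either, and the lowest value was that of MDP CD103 low replicate 1. The response was 1.00 ± 0.14 (SE, adjusted p = 0.00502) in CD103 high cells and -0.43 ± 0.13 (adjusted p = 0.741) in CD103 low cells, and the interaction was 1.43 ± 0.19. Without MDP CD103 low replicate 1 it was 1.24, with an adjusted p of 0.0115, and Esco2 was then the gene of the 16 that still passed.

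Ndc80 (probe set 17347042) encodes a part of the kinetochore that grips spindle microtubules. It stood at 8.82, 9.06 and 8.64 in MDP CD103 high against 8.11, 7.57 and 7.50 in PBS CD103 high. In the low gate it was 7.86, 8.03 and 7.80 with MDP against 8.21, 8.17, 8.21 and 8.09 with PBS. Again the MDP arrays were the higher in CD103 high cells and the lower in CD103 low cells, with no overlap. The changes were 1.12 ± 0.15 and -0.27 ± 0.14, and the interaction of 1.39 ± 0.20 corresponds to a 2.62-fold difference between the responses.

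Kif4 (probe set 17536566), a motor protein that rides on chromosome arms, had 7.13, 7.35 and 7.01 in MDP CD103 high and 6.53, 6.26 and 6.03 in PBS CD103 high. The low gate had 6.03, 6.13 and 6.38 with MDP and 6.49, 6.53, 6.79 and 6.41 with PBS, so the groups did not overlap in either gate. Its interaction was 1.27 ± 0.19. Ncapg2, a subunit of condensin II, had 1.12 ± 0.18, and Kif18b, a kinesin that shortens microtubules, had 0.93 ± 0.15. For both, the MDP arrays lay above the PBS arrays in the high gate and below them in the low gate.

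A second group starts and carries out DNA replication. Atad2 (probe set 17317233), an ATPase that binds acetylated histones on new chromatin, was at 9.15, 9.08 and 8.91 in MDP CD103 high and at 8.19, 7.85 and 7.75 in PBS CD103 high. The low gate held 7.78, 8.46 and 8.22 with MDP and 8.41, 8.58, 8.30 and 8.31 with PBS. These low-gate groups overlapped, with MDP CD103 low replicate 1 far below the others of its gate. The interaction was 1.36 ± 0.22, and 1.18 without that array (adjusted p = 0.0836).

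Cdc7, the kinase that fires replication origins, had an interaction of 1.03 ± 0.17, from a response of 0.82 ± 0.12 in the high gate and of -0.21 ± 0.11 in the low gate. Mtbp, a partner of the origin-firing factor Treslin, had 0.93 ± 0.15. Wdhd1, which couples the helicase to the polymerases, had 0.97 ± 0.16. Rpa2, a subunit of the protein that coats single-stranded DNA, was at 8.12, 8.24 and 8.31 in MDP CD103 high, and its other 10 values ran from 7.44 to 7.89. Rfc5, a subunit of the clamp loader, had the smallest of the 16 interactions, 0.78 ± 0.11, with 8.12 to 8.27 in MDP CD103 high and 7.56 to 7.63 in PBS CD103 high.

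The remaining 5 genes act in DNA repair and at stalled forks. Fancd2 (probe set 17461739), the protein marked with ubiquitin when strands are cross-linked, was at 7.61, 7.6 and 7.32 in MDP CD103 high and at 6.67, 6.31 and 6.24 in PBS CD103 high. Its low-gate values were 6.59, 6.88 and 6.68 with MDP and 6.80, 6.80, 6.65 and 6.71 with PBS. They overlapped, so that the interaction of 1.12 ± 0.17 came almost wholly from the high gate, where the response was 1.10 ± 0.12 against -0.02 ± 0.11. Blm, a helicase that takes recombination intermediates apart, had an interaction of 1.21 ± 0.19. Rad54l, a motor protein that moves along DNA, had 1.05 ± 0.17, and Mms22l, which acts with Tonsl at broken forks, had 1.04 ± 0.17. Rad18, the ligase that puts ubiquitin on the clamp PCNA, had 0.80 ± 0.13.

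**Figure D2:**
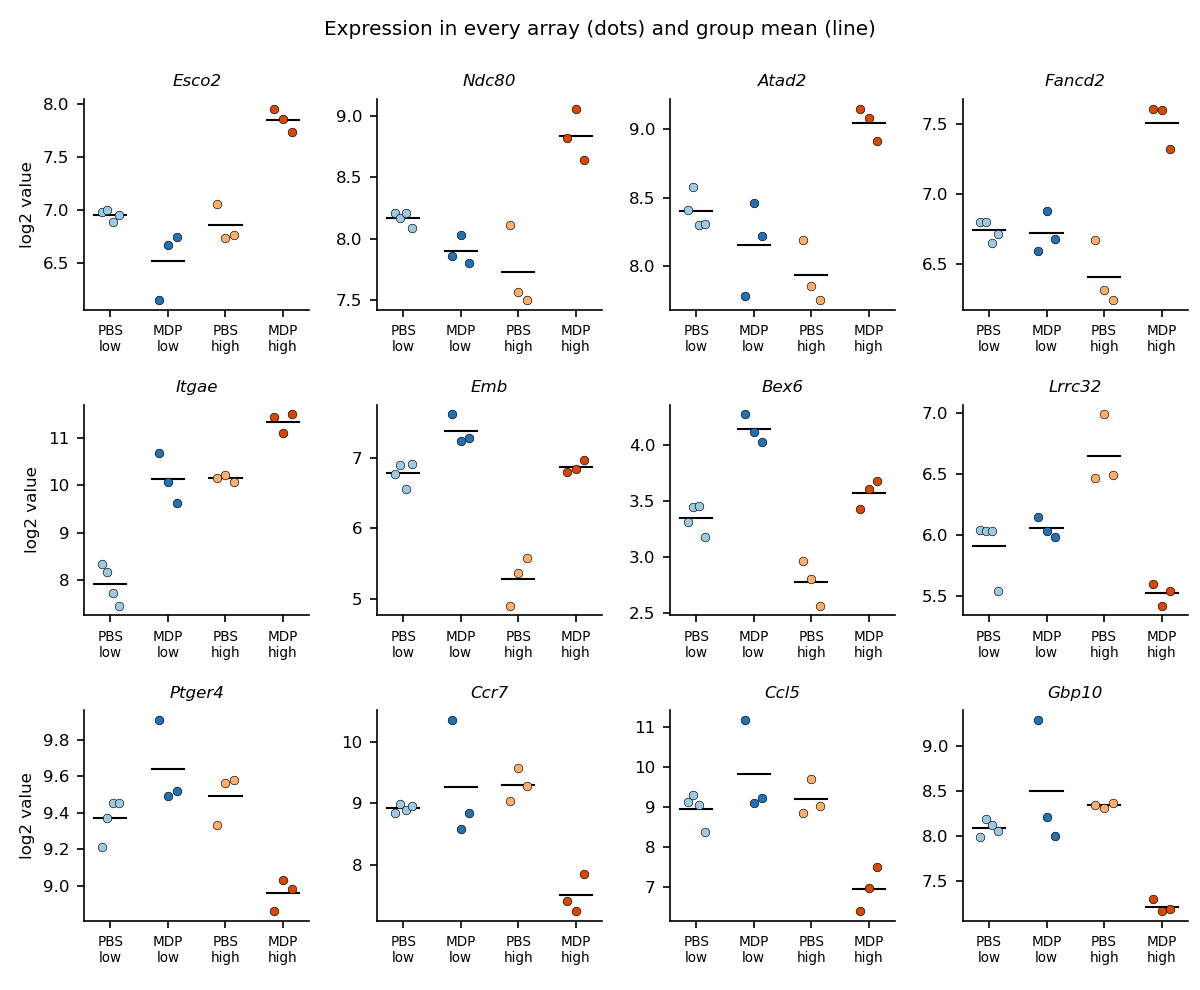
Each panel shows the log2 value of 1 gene in the 13 arrays, as dots by group with the group mean as a line, and the vertical axes differ in range. In Esco2, Ndc80, Atad2 and Fancd2 the 3 MDP high dots lie above all others, in Itgae and Bex6 the MDP dots lie above the PBS dots in both gates, and in Lrrc32, Ptger4, Ccr7, Ccl5 and Gbp10 the MDP high dots are low.

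All 16 genes passed in the high gate and 0 of 16 passed in the low gate. In 6 of the 16, Esco2, Kif4, Blm, Kif18b, Rad18 and Rfc5, the unadjusted 95% interval of the low-gate response lay below 0, and in the other 10 it held 0. The interval ran from -0.711 to -0.149 for Esco2 and from -0.314 to -0.003 for Rfc5, the nearest to 0. The genes were chosen for a large high-minus-low value, which favours high-gate differences above 0 and low-gate differences below 0. Nothing is therefore read from these signs. Without MDP CD103 low replicate 1, 2 genes passed the interaction, Esco2 (1.24) and, in the other direction, the guanylate-binding protein Gbp10 (-1.15), which is not one of the 16. In PBS mice the 16 genes had differences of -0.47 to -0.04 between the CD103 high and the CD103 low gate, and in MDP mice of 0.52 to 1.33. These are the same values read across the gates, not a further test. In arrays of sorted cells, more cells in cycle, more RNA per cycling cell and a change in which cells fall into a gate cannot be told apart.

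The stretches before the starts of 4 of these genes are shown because genes of replication and mitosis are known for E2F, CHR and CCAAT sequences there. The 4 were not chosen by a rule. Each is the 80 bases before the start as RefSeq gives it on GRCm38.p6, 5′ to 3′ on the strand of the gene, with matches in capitals. Kif18b is at chr11:102925125-102925204 on the minus strand, Rpa2 at chr4:132768280-132768359 on the plus strand, Ncapg2 at chr12:116405356-116405435 on the plus strand and Ndc80 at chr17:71526858-71526937 on the minus strand.
Kif18b: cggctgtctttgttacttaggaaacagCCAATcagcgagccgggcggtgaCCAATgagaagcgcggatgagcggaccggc
Rpa2: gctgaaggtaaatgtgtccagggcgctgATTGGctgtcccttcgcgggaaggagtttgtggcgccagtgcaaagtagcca
Ncapg2: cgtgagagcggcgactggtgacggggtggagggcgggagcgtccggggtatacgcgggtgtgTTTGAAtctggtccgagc
Ndc80: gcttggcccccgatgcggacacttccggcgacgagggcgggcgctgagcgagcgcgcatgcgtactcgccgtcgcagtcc

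Kif18b held CCAAT at 53 and 30 bases before the start, Rpa2 its reverse complement ATTGG at 52 bases and Ncapg2 the CHR word TTTGAA at 18 bases, while Ndc80 held no match in this stretch. Over the 250 bases before the start and on both strands, CCAAT was found in 5 of the 12 genes of the 16 that have a promoter in the RefSeq table, or 41.7%, and in 33.8% of all 32851 promoters. TTTGAA was found in 2 of 12 (16.7%) and in 16% of all. The E2F words TTTCCCGC, TTTGGCGC, TTTCGCGC and TTTGCCGC were found in 1 of 12 (8.33%), Ncapg2, and in 1.86% of all. No word overlapped another in the printed stretches. The share of the 12 counts genes with a match in any of their promoters, and the share of all counts single promoters, so the 2 shares are unlike measures. A match describes the letters and not a bound site.

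Beyond the 16, nearly every measured gene of the cell cycle leaned the same way. In 9 lists of cell cycle genes, chosen with earlier results of these data known, 231 of 239 measured genes had an interaction above 0, with a median of 0.70, beside 10491 of 22180 and a median of -0.01 over all genes. Of the 239, 12 passed the interaction. In CD103 high cells 133 of the 239 rose and 0 fell, where 1.42% of all genes rose and 0.397% fell. In CD103 low cells 0 passed, and 82 of 239 lay above 0. The median response was 0.63 in the high gate and -0.04 in the low gate. The lean below 0 in the low gate depended on MDP CD103 low replicate 1. Without it the low-gate medians turned from -0.110 to 0.009 for the centriole list and from -0.074 to 0.018 for the cyclin list. They turned from -0.013 to 0.006 for the E2F list and from -0.025 to 0.034 for the DNA methylation list.

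Genes of replication and genes of mitosis had similar median responses in the high gate. For replication licensing and fork genes, such as the Mcm helicase, 41 of 41 interactions were above 0 and 37 of 41 genes rose in CD103 high cells, with a median response of 0.75 there and 0.02 in the low gate. The mean level of this list was 8.47, 8.49 and 8.50 in the MDP CD103 high arrays, 7.58 to 7.96 in PBS CD103 high, 7.78 to 8.03 in MDP CD103 low and 7.76 to 8.03 in PBS CD103 low. Groups thus overlapped fully in the low gate and not at all in the high gate. For kinetochore and spindle checkpoint genes 36 of 36 interactions were above 0, with median responses of 0.66 and -0.14, and for cohesin, condensin and mitotic motors 33 of 33, with 0.68 and -0.19. Without MDP CD103 low replicate 1, the low-gate medians of the latter lists were 0.034 and -0.015, and the interaction medians were 0.658 and 0.698.

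Cdc6, which loads the Mcm helicase on origins, showed the high-gate response of the replication list, with 1.27 in CD103 high and -0.01 in CD103 low cells. Its interaction of 1.29 had an adjusted p of 0.0553. Cdc6 was named after its values were seen. Lrr1, a ubiquitin ligase receptor that helps unload the replicative helicase, rose by 1.35 ± 0.16 in the high gate, with 0.19 ± 0.15 in the low gate and an interaction of 1.17 ± 0.22 (adjusted p = 0.0722, and 0.0474 with the replicate block within treatment). The interaction of Lrr1 passed in 5 of 21 alternatives, with an adjusted p up to 0.201. Among nucleotide synthesis genes, 18 of 18 interactions were above 0. The ribonucleotide reductase subunits Rrm1 and Rrm2 rose by 1.01 ± 0.16 and 0.81 ± 0.15 in the high gate, with 0.03 ± 0.15 and -0.18 ± 0.14 in the low gate.

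Among homologous recombination and Fanconi repair genes, 24 of 25 interactions were above 0 (median 0.80), and among centriole and spindle pole genes 22 of 22 (median 0.68). In the latter list Stil, needed to build a centriole, had an interaction of 1.25 ± 0.24 and Haus6, of the augmin complex, 0.82 ± 0.16, both with an adjusted p of 0.0824. In the kinetochore list Ska3 had 1.32 ± 0.22 (adjusted p = 0.0553). Among DNA methylation and chromatin assembly genes 15 of 16 were above 0 (median 0.63), and Uhrf1, which brings the methyltransferase Dnmt1 to new DNA, had 0.89 ± 0.16 (adjusted p = 0.0682).

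Few genes of these lists leaned the other way. Among cyclins, CDKs and mitotic kinases, 25 of 28 interactions were above 0 (median 0.55), and the 3 others were the CDK inhibitors Cdkn1a (-0.72) and Cdkn1b (-0.04) and the cyclin Ccnd2 (-1.10). In the E2F family and DREAM list, 17 of 20 were above 0 (median 0.38), and the others were Rb1 (-0.07), the retinoblastoma protein that holds E2F in check, the repressor E2f5 (-0.03) and Lin37 of the DREAM complex (-0.19). None of these 6 passed the interaction, and they were named after their values were seen. Mybl2 and E2f7 of the same list rose in CD103 high cells, by 0.71 ± 0.11 and 0.65 ± 0.13, with -0.02 ± 0.10 and -0.23 ± 0.12 in CD103 low cells. Pbk, a mitotic kinase, rose by 0.86 ± 0.16 against -0.22 ± 0.15.

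**Figure D3:**
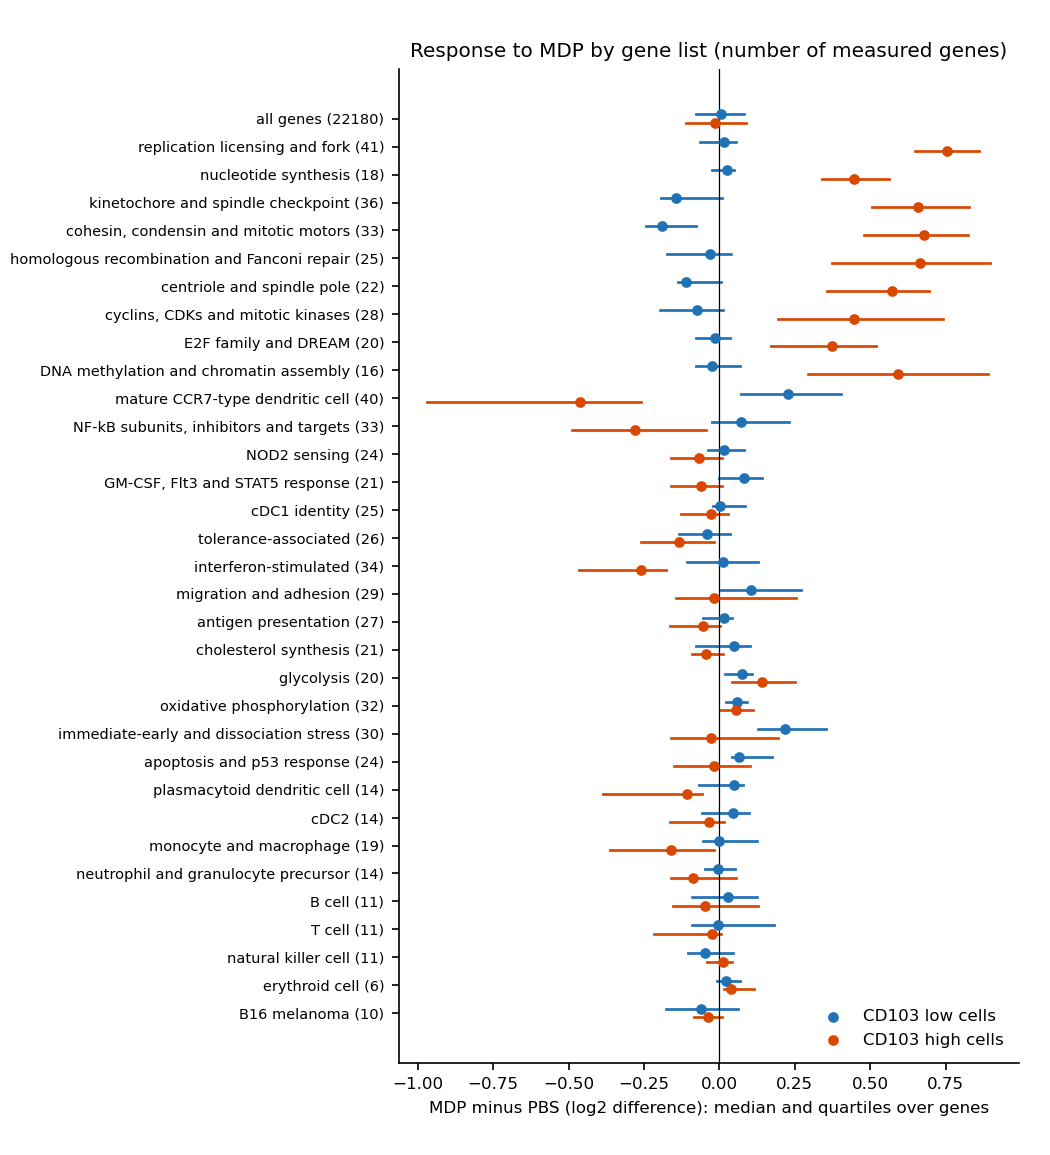
Dots are medians and bars are quartiles, over the measured genes of each list, of the log2 difference between MDP and PBS in CD103 low cells and in CD103 high cells. The 9 cell cycle lists have high-gate medians of 0.37 to 0.75 and low-gate medians of -0.19 to 0.03, and the mature CCR7-type list has -0.46 against 0.23.

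Most genes that responded in CD103 high cells were not shown to differ between the gates. In that gate 403 genes passed (1.82%), 315 higher and 88 lower with MDP, and in the low gate 1 did (0.00451%), which was Itgae. Of the 403, 16 also passed the interaction, 1 passed in both gates and 386 did neither. For these 386 a response in the high gate alone is therefore not shown. The count fell to 109 without MDP CD103 high replicate 2, to 124 without MDP CD103 high replicate 3, to 94 without PBS CD103 high replicate 5 and to 82 without PBS CD103 high replicate 6. With the high-gate arrays fitted alone it was 200.

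The low-gate responses of those genes centred near 0. Of the 315 that rose in CD103 high cells, 162 (51.4%) had a positive difference in CD103 low cells, and the medians were 0.653 and 0.004. Of the 88 that fell, 59 (67.0%) had a negative difference, with medians of -0.52 and -0.04. The responses of the gates share no arrays, but same-numbered arrays of a treatment deviated together across the gates, so the responses are not independent. Over all 22180 genes their Pearson correlation was 0.023, and 0.176 without MDP CD103 low replicate 1, a description across genes, which are not independent replicates.

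Itgae, the gene of the sorted integrin itself, passed in both gates. It was at 11.44, 11.10 and 11.51 in MDP CD103 high and at 10.16, 10.22 and 10.07 in PBS CD103 high. Among CD103 low arrays it was at 10.68, 10.07 and 9.64 with MDP and at 8.35, 8.17, 7.73 and 7.46 with PBS. No groups overlapped within a gate, and MDP CD103 low cells overlapped with PBS CD103 high cells in level. The rise was 2.21 ± 0.23 (4.62-fold, adjusted p = 0.00838) in the low gate and 1.20 ± 0.25 (2.29-fold, adjusted p = 0.029) in the high gate. The interaction was -1.01 ± 0.34 and did not pass (adjusted p = 0.332). The cells were sorted on the protein of this gene.

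The calls of Itgae were close to the threshold in several fits. Its high-gate adjusted p was 0.061 to 0.124 when any 1 of the 6 high-gate arrays was left out, with differences of 1.12 to 1.32. Its low-gate adjusted p was 0.0787 without MDP CD103 low replicate 2 and 0.0566 without PBS CD103 low replicate 4, and 0.331 with the low-gate arrays fitted alone. Without MDP CD103 low replicate 1 the low-gate rise was 1.93 (adjusted p = 0.0288).

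The average of the 2 responses passed in 41 genes (0.185%), 33 higher (0.149%) and 8 lower (0.0361%). Of the 41, 39 had the same sign in both gates, 17 had a low-gate response with an unadjusted p under 0.05, and 32 had an interaction with an unadjusted p under 0.05. A passed average is therefore not a response shown in each gate. The average passed in 114 genes without MDP CD103 low replicate 1 and in 120 without PBS CD103 high replicate 4. With PBS CD103 low replicate 1, 4 or 6 left out it passed in 22, 17 or 13, and with MDP CD103 low replicate 2 or 3 left out in 15 or 14. With MDP CD103 high replicate 2, 3 or 4 left out it passed in 4, 4 or 14, and with PBS CD103 high replicate 5 or 6 left out in 3 or 4. With the replicate block within treatment it passed in 13.

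Bex6, a small adaptor-like protein of the brain-expressed X-linked family, was at 4.28, 4.12 and 4.03 in MDP CD103 low and at 3.32, 3.45, 3.46 and 3.18 in PBS CD103 low. In CD103 high cells it was at 3.43, 3.61 and 3.68 with MDP and at 2.97, 2.81 and 2.57 with PBS. All these values lie in the range of the olfactory receptor genes. The groups did not overlap in either gate, and naming genes by a large average response favours this. The responses were 0.79 ± 0.11 in the low gate and 0.79 ± 0.12 in the high gate, and the interaction was -0.005, with a 95% interval of -0.347 to 0.338. In the low gate Bex6 had an adjusted p of 0.0694, and 0.0453 with the replicate block within treatment.

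Plet1, a membrane protein of epithelial and dendritic cells, had responses of 0.75 ± 0.18 in the low gate and 0.88 ± 0.19 in the high gate, and an interaction of 0.13 with an interval of -0.439 to 0.704. Relt, a receptor of the TNF receptor family, had 0.74 ± 0.15 and 0.83 ± 0.16, and an interaction of 0.10 with an interval of -0.386 to 0.582. For both, the MDP arrays lay above the PBS arrays in each gate, and these intervals leave room for unequal responses. Ifitm6, an interferon-inducible membrane protein, fell by 0.85 ± 0.12 in the high gate (adjusted p = 0.00502) and had -0.40 ± 0.11 in the low gate, where it did not pass (adjusted p = 0.741).

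Emb, the chaperone of lactate transporters called embigin, rose in CD103 high cells from 4.90, 5.36 and 5.58 to 6.81, 6.85 and 6.98. In CD103 low cells it was at 6.77, 6.90, 6.56 and 6.92 with PBS and at 7.63, 7.24 and 7.29 with MDP. The MDP arrays were the higher in both gates without overlap, and with MDP the high gate came up to the PBS level of the low gate. The responses were 1.60 ± 0.16 (adjusted p = 0.00428) and 0.60 ± 0.15 (adjusted p = 0.706), and the interaction was 1.00 ± 0.22 (adjusted p = 0.1, and 0.0454 among the 11716 genes above the olfactory receptor range). With the mean of its probe sets the interaction was 0.51 (adjusted p = 0.308). Cbx5, which encodes the heterochromatin protein HP1 alpha, had 1.09 ± 0.13 and 0.22 ± 0.12, and an interaction of 0.86 ± 0.18 (adjusted p = 0.086).

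Genes whose responses pointed in opposite directions were rarer than those that pointed the same way. At an unadjusted p of 0.05 in each gate, 72 genes (0.325%) had opposite signs, 35 higher and 37 lower in CD103 high cells, and 136 genes (0.613%) had the same sign, 76 higher and 60 lower. In the low gate Itgae alone of these passed the adjusted threshold. At the same unadjusted p, 1502 genes were higher and 1454 lower in the high gate, and 677 and 666 in the low gate. Counts of this size overlap by chance too, so the 72 are not shown to be a class of opposite responses. Beside the 6 named above, the opposite genes with the smallest interaction p included Nt5dc2, a member of the nucleotidase family, with 0.64 ± 0.12 in the high gate and -0.28 ± 0.11 in the low gate. Arl9, a small GTPase of the ARF-like family whose level lay in the olfactory receptor range, had 0.34 ± 0.11 against -0.50 ± 0.10. Their interactions had adjusted p of 0.0682 and 0.0693.

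No gene passed with the less positive response in CD103 high cells. In other settings some did, 19 of 134 among genes above the olfactory receptor range, 10 of 116 with a variance trend and 8 of 107 without PBS CD103 high replicate 4. The 8 nearest to the threshold were genes of another kind. Lrrc32 encodes GARP, which holds latent TGF-beta on the cell surface. It was at 5.60, 5.42 and 5.54 in MDP CD103 high and at 6.47, 6.99 and 6.49 in PBS CD103 high. Its low-gate values were 6.15, 6.03 and 5.98 with MDP and 6.04, 6.03, 6.03 and 5.54 with PBS. The high-gate groups did not overlap and the low-gate groups did. It fell by 1.13 ± 0.15 (adjusted p = 0.00495) in CD103 high cells, against 0.14 ± 0.14 in CD103 low cells, and the interaction was -1.27 ± 0.21 (adjusted p = 0.0525). With the replicate block within treatment it was -1.27 (adjusted p = 0.0283). It was -1.15 without PBS CD103 low replicate 6 (adjusted p = 0.0395) and -1.36 without PBS CD103 high replicate 4 (adjusted p = 0.0282). The interaction of Lrrc32 passed in 6 of 21 alternatives, and its adjusted p reached 0.197 with the replicate block as a fixed number.

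Ptger4, a receptor for prostaglandin E2, was at 8.86, 9.03 and 8.98 in MDP CD103 high and at 9.33, 9.56 and 9.58 in PBS CD103 high. In CD103 low cells it was at 9.91, 9.49 and 9.52 with MDP and at 9.21, 9.37, 9.45 and 9.45 with PBS. The MDP arrays were the lower in one gate and the higher in the other, with no overlap. The responses were -0.53 ± 0.12 and 0.27 ± 0.11, and the interaction was -0.80 ± 0.16 (adjusted p = 0.0843, and 0.0436 without PBS CD103 high replicate 4). The interaction of Ptger4 passed in 3 of 21 alternatives, with an adjusted p up to 0.301. Dusp5, a phosphatase that switches off ERK kinases, had -0.69 ± 0.16 and 0.36 ± 0.15, and an interaction of -1.05 ± 0.22 (adjusted p = 0.088).

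Zfas1, a host RNA of small nucleolar RNAs, and Cgn, the tight junction protein cingulin, fell in CD103 high cells, by 0.52 ± 0.07 and 0.48 ± 0.07. Both had about 0 in CD103 low cells, at -0.02 ± 0.07 and -0.01 ± 0.07, and interactions of -0.50 ± 0.10 and -0.47 ± 0.10 (adjusted p = 0.0843 and 0.086). Vit, of the extracellular matrix, and Wdr38 had interactions of -0.80 ± 0.16 and -0.62 ± 0.13 (adjusted p = 0.0843 and 0.086), with mean levels of 3.39 and 4.97 that lie in the olfactory receptor range.

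Genes of mature dendritic cells had large negative interactions that did not pass, and the array that stood apart held their highest values. The chemokine Ccl5 was at 6.41, 6.98 and 7.50 in MDP CD103 high and at 8.87, 9.70 and 9.03 in PBS CD103 high. The low-gate arrays had 11.19, 9.10 and 9.24 with MDP and 9.13, 9.31, 9.05 and 8.39 with PBS. The high-gate groups did not overlap, the low-gate groups did, and the value of 11.19 is that of MDP CD103 low replicate 1. It fell by 2.24 ± 0.47 (adjusted p = 0.0311) in CD103 high cells, and the interaction was -3.11 ± 0.65 (adjusted p = 0.088), or -2.43 without that array (adjusted p = 0.0836).

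Ccr7 had the same shape, with 7.41, 7.24 and 7.85 in MDP CD103 high, 9.04, 9.58 and 9.29 in PBS CD103 high, 10.37, 8.58 and 8.84 in MDP CD103 low and 8.85 to 8.99 in PBS CD103 low. It fell by 1.80 ± 0.35 (adjusted p = 0.0194) in CD103 high cells. Its interaction was -2.14 ± 0.47 (adjusted p = 0.102), and -1.58 without MDP CD103 low replicate 1. Cd63, a tetraspanin of endosomes, had -1.94 ± 0.46 in the high gate (adjusted p = 0.0544) and 0.77 ± 0.43 in the low gate. The stress gene Gadd45b fell by 1.99 ± 0.41 in the high gate (adjusted p = 0.0271), against 0.46 ± 0.38 in the low gate.

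Of 40 measured genes in the mature CCR7-type list, 1 had an interaction above 0, the cystatin Cst7, and the median was -0.68. In CD103 high cells 5 of the 40 fell and 0 rose, beside 0.397% and 1.42% of all genes, with a median of -0.46. The 5 were Ccr7, Ccl5, the NF-kB subunit Relb (-1.07 ± 0.24), the apoptosis inhibitor Birc3 (-0.49 ± 0.09) and the costimulatory protein Cd80 (-0.62, adjusted p = 0.0465). The median in the low gate was 0.23, and -0.037 without MDP CD103 low replicate 1, while the median interaction was then -0.405. The mean level of the list was 7.01, 7.01 and 7.15 in MDP CD103 high and 7.58 to 7.91 in PBS CD103 high. It was 7.38 to 7.63 in PBS CD103 low, between which the 2 MDP CD103 low arrays other than replicate 1 lay.

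Genes of NF-kB, the factor downstream of NOD2, leaned the same way, with 4 of 33 interactions above 0, a median of -0.43, and -0.242 without MDP CD103 low replicate 1. In CD103 high cells 7 of the 33 fell and 0 rose, beside the same 0.397% and 1.42% of all genes. Among the 7 was Tnip1, an inhibitor of NF-kB (-0.57 ± 0.12, adjusted p = 0.026). Of 34 interferon-stimulated genes 5 had an interaction above 0 (median -0.30). The guanylate-binding protein Gbp10 was at 7.29, 7.16 and 7.18 in MDP CD103 high, 8.35, 8.31 and 8.37 in PBS CD103 high, 9.30, 8.21 and 8.0 in MDP CD103 low and 7.99 to 8.19 in PBS CD103 low. It fell by 1.13 ± 0.24 (adjusted p = 0.029) in CD103 high cells. Its interaction was -1.55 ± 0.32 (adjusted p = 0.0885), and -1.15 with an adjusted p of 0.0101 without MDP CD103 low replicate 1.

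**Figure D4:**
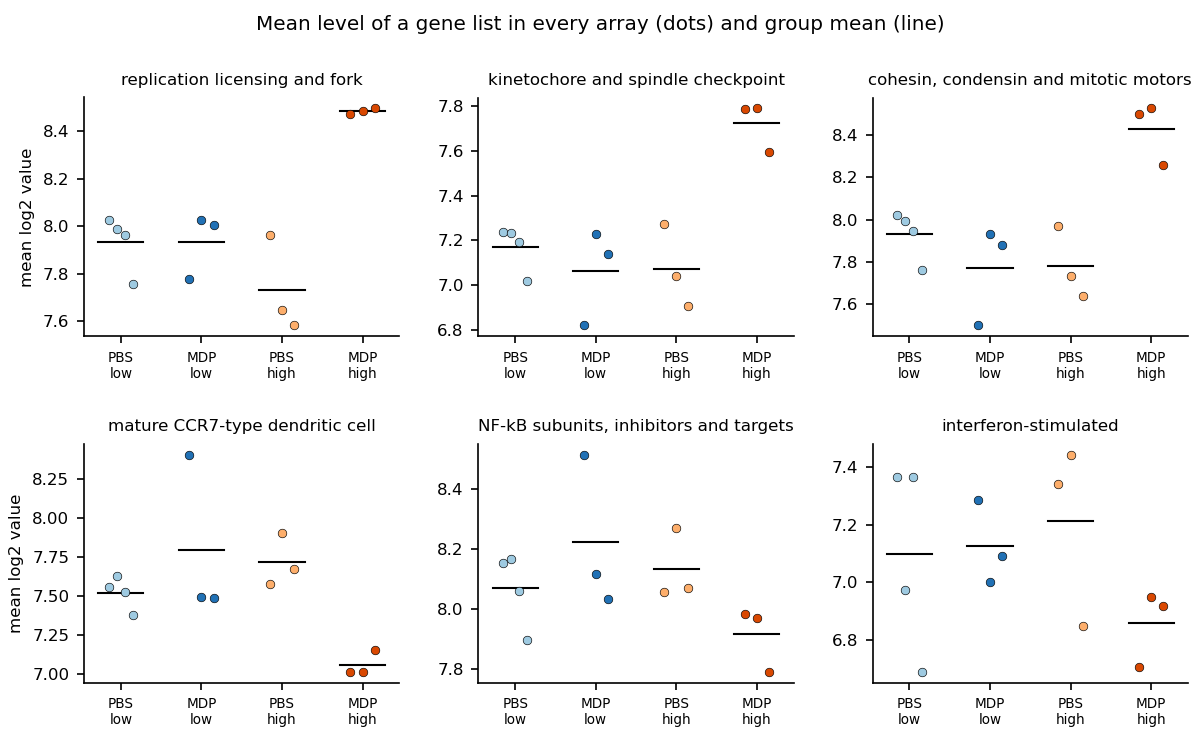
Each panel shows the mean log2 value over the measured genes of 1 list in the 13 arrays, as dots by group with the group mean as a line. The MDP high arrays lie above all others in the 3 cell cycle lists and below all others in the mature CCR7-type list, where MDP CD103 low replicate 1 is the single high dot at 8.41.

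For lists on other functions, median interactions were -0.04 for 25 cDC1 identity genes, -0.11 for 24 NOD2 sensing genes, -0.07 for 27 antigen presentation genes, -0.08 for 21 cholesterol synthesis genes and 0.02 for 32 oxidative phosphorylation genes. Glycolysis had 0.05, with Pkm and Tpi1 higher in CD103 high cells by 0.35 ± 0.06 and 0.39 ± 0.08 and with 0.06 ± 0.06 and 0.04 ± 0.07 in CD103 low cells. The GM-CSF, Flt3 and STAT5 list had -0.15, with 0 of 21 genes past the threshold in any of the 3 tests. Over all genes 0.0721% passed the interaction, 1.82% the high gate and 0.00451% the low gate, so nothing is read from this 0. Immediate-early and dissociation stress genes had -0.18. Of these 30 genes, 28 lay above 0 in the low gate (median 0.22) and 14 in the high gate (median -0.03), beside 11423 and 10272 of all 22180 genes. The part of these genes in the results was not tested. Migration and adhesion genes went both ways in CD103 high cells. There 4 of 29 rose, Vcl (vinculin) by 0.37 ± 0.07 among them, and 2 fell, beside 1.42% and 0.397% of all genes. H2-Oa, which tempers the loading of MHC class II, fell there by 0.59 ± 0.11, and the sterol enzyme Msmo1 by 0.45 ± 0.09.

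Markers of other cells that the sort could hold did not pass the interaction in any of 9 lists. Over all genes 0.0721% passed it, so few or none would be expected here and nothing is read from this. In CD103 high cells 2 of 14 plasmacytoid, 1 of 11 B cell and 1 of 11 T cell markers fell. In these 9 lists 0 rose there, beside 0.397% of all genes that fell and 1.42% that rose. Plasmacytoid dendritic cell markers had 2 of 14 interactions above 0 (median -0.17). Their mean level was 6.64 to 6.90 in PBS CD103 high, 6.51 to 6.58 in MDP CD103 high, 6.54 to 6.66 in PBS CD103 low and 6.62 to 6.76 in MDP CD103 low. Pacsin1 and Cd300c of this list fell in CD103 high cells, by 0.77 ± 0.14 and 0.96 ± 0.14, with 0.06 ± 0.13 and -0.20 ± 0.13 in CD103 low cells, and 3 of the 14 markers lay in the olfactory receptor range. Monocyte and macrophage markers had 5 of 19 above 0 (median -0.19), with mean levels of 6.15 to 6.19 in PBS CD103 high and 5.98 to 6.08 in MDP CD103 high. Of the B cell markers 8 of 11 lay in the olfactory receptor range, and Fcrla fell in CD103 high cells by 0.72 ± 0.10, against -0.27 ± 0.09 in CD103 low cells. MDP CD103 low replicate 1 had the highest mean level of all arrays for the T cell markers, at 5.663. The other MDP CD103 low arrays had 5.225 and 5.255, and PBS CD103 low arrays had 5.212 to 5.308. The T cell list includes Ccr7, and 7 of its 11 markers lay in the olfactory receptor range. For monocyte and macrophage markers that array was also the highest, at 6.324, against 5.97 to 6.219 in PBS CD103 low. The part of these markers in the results was not tested.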

How the data were processed

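RNA of sorted splenic dendritic cells was measured on 13 arrays in 4 groups. The input was 400 ng of RNA, pre-amplified, per the labels. The authors deposited log2 values, 1 per probe set and array, for which the submitters' processing notes name RMA and Affymetrix Expression Console. Neither versions nor a genome build is stated in the sources used here. Because RMA normalises by quantiles, a change shared by most genes would be lost. Array medians were 5.003 to 5.135. No scanner file or detection call was used.

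The table pairs 23521 of 41345 probe sets with a single symbol and 1814 with several, and 16010 are unlisted. The first gave 22180 genes, each by its probe set with the highest mean (1082 had several), and 21994 matched the RefSeq table. The 17824 other probe sets were tested apart, and 0 passed in the 4 comparisons, with 1083 at an unadjusted p of 0.05 in the interaction. limma 3.58.1 (R 4.3.3) fitted 1 mean per group over all 13 arrays (9 residual and 3.86 prior degrees of freedom), without a block. The contrasts were the MDP response in each gate, their difference (the interaction) and their average. Tests were two-sided, with Benjamini-Hochberg over all genes at 0.05. Errors are standard errors unless called SD.

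The members, the 23 gene lists and the 9 marker lists were chosen with earlier results of these data known, and lists are described by counts and medians without a test. Named by rule were all genes past the interaction, the 8 of smallest p in the direction where under 5 passed, genes passing in both gates, the 8 largest average responses of like sign, 10 genes of opposite sign, up to 2 genes of each list in each direction, and a set always named. Predicted genes, small RNAs, antigen receptor and chemosensory receptor genes were not named under the size rules. On simulated data of 22180 genes, the interaction recovered 38 and 42 of 50 genes changed by 1 and -1 (log2), 50 of 50 at 2 and at -2, and called 6 unchanged genes. The simulated noise was normal and independent between genes and arrays, with no array apart and no pairing. These counts thus do not tell how many changes would be found in the real arrays.

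Replicate numbers recur across groups. Deviations from group means correlated at 0.115 to 0.289 in all 4 same-numbered pairs within a treatment, which also shared their Xist level, so numbers were taken to pair arrays there. Over 5 pairs across treatments the correlation was -0.130 to 0.403, above 0.1 in 1. Alternatives were other probe set rules, a filter on dim genes, centring, variance trend, array weights, replicate blocks, a term for Xist and leaving out each array. Plots were drawn with matplotlib 3.10.9 in Python 3.11.15.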

Additional observations from a re-analysis of the deposited data

Results flagged for a closer look

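The difference between the gates was itself tested and passed in 16 genes, with interactions of 1.43 for Esco2, 1.39 for Ndc80, 1.36 for Atad2, 1.27 for Kif4, 1.21 for Blm, 1.12 for Ncapg2, 1.12 for Fancd2, 1.05 for Rad54l, 1.04 for Mms22l, 1.03 for Cdc7, 0.97 for Wdhd1, 0.93 for Mtbp, 0.93 for Kif18b, 0.80 for Rad18, 0.80 for Rpa2 and 0.78 for Rfc5 on the log2 scale. Each had an adjusted p of 0.0486 (limma, Benjamini-Hochberg).

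The PBS CD103 low group has 4 arrays, and in 7 of 116 values checked there 1 array lay far from the other 3. Chance alone would give this in about 1 of 20 groups. PBS CD103 low replicate 6 was the low array for Lrrc32 (5.54), Stil (7.41), Fcrla (8.18) and the mean level of the E2F family and DREAM list (7.71). PBS CD103 low replicate 1 was the high array for Ncapg2 (7.82) and Mitf (6.64), and PBS CD103 low replicate 3 for Epor (5.17).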

How the results depend on the processing

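The count of genes past the interaction, 16, was 134 among genes above the olfactory receptor range, 116 with a variance trend, 35 with array weights, 41 with the replicate block within treatment, 0 with the replicate block as a fixed number and 0 with a term for high Xist, and 0 to 107 with 1 array left out. In the first 4 of these 19, 10, 1 and 1 were lower in CD103 high cells, and 0 to 8 with 1 array left out. The high-gate count of 403 was 699, 609, 0 (fixed block) and 200 (own arrays) and 82 to 594 with 1 array left out. The low-gate count of 1 was 0 with a variance trend, the fixed block and its own arrays, 2 with the block within treatment, and 0 to 2. The average count of 41 was 212, 187, 97 (array weights), 0 (fixed block), 13 (block within treatment) and 3 to 120.

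Genes with unadjusted intervals on opposite sides of 0, 6, were 16, 17, 0 (fixed block), 0 (Xist term) and 0 to 14. Those with 1 interval off 0, 10, were 117, 99, 30, 0, 33, 0 and 0 to 93 in the order of the interaction. Genes called in both gates, 1, were 0 (variance trend), 0 (fixed block), 2 (block within treatment) and 0 to 1. The fixed number joins arrays across treatments, where only 1 of 5 pairs deviated together. Fewer genes tested or fewer arrays make some of these counts differ, and otherwise the cause was not tested.

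All 16 differences stayed above 0 in all 21 alternatives, from 0.705 to 1.582, and Esco2 passed in 10 of 21. These alternatives reuse the arrays on which the 16 were chosen, so the kept signs are no separate support. Among interactions of named genes, signs turned only near 0. Bex6 was 0.004 with centring, 0.023 with array weights and -0.112 to 0.088 with 1 array left out, in which Plet1 ran from -0.065 to 0.322 and Relt from -0.025 to 0.207. Irf8 ran from -0.042 to 0.008, Batf3 from -0.030 to 0.110 and Flt3 from -0.118 to 0.004. Without MDP CD103 low replicate 1 low-gate medians of several lists turned. Among them were the mature list from 0.228 to -0.037, NF-kB from 0.072 to -0.072, kinetochore from -0.143 to 0.034 and GM-CSF from 0.081 to -0.014. The centriole, cyclin, E2F and DNA methylation lists turned to above 0 as well. Medians and signal over background rest on 3 or 4 arrays per group, and dim genes such as Bex6 have no detection call here.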
